A study of Mus musculus with 115 samples.

Results

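Haptoglobin (Hp), the decoy interleukin 1 receptor Il1r2, angiotensinogen (Agt) and the klotho-family glycosidase-like gene Lctl were followed in inguinal fat and in liver of hormone-treated mice. The 4 genes were chosen because their signals in fat differed between testosterone and blank treatment in an earlier reading of these arrays. That difference is therefore described here and not tested. All probes carrying the 4 symbols were taken: 3 probes for Hp and 1 each for Il1r2, Agt and Lctl, which makes 6 of 25697 probes and 4 of 18120 symbols. All 6 passed the filter on dim probes in fat. In liver only the 3 Hp probes and the Agt probe passed it. The Hp probe with the highest mean in fat, ILMN_2944824, is called the first Hp probe.

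Haptoglobin is a plasma protein that binds free haemoglobin. The liver secretes it during the acute phase of inflammation, and adipocytes make it too. Il1r2 binds interleukin 1 without passing on a signal, and glucocorticoids are known to raise it. Angiotensinogen is the precursor that renin cuts to start the angiotensin cascade. Liver is its main source, and fat has a local supply. Lctl belongs to the klotho family, whose better known members, klotho and beta-klotho, are co-receptors for endocrine fibroblast growth factors.

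The arrays are 1-colour Illumina BeadChips, 55 of inguinal fat and 60 of liver, from a C57BL/6J mouse model that separates gonad type from the sex chromosomes. In it the Y chromosome (XY-) lacks Sry, the switch for testis formation, and an autosomal Sry transgene is present or absent. Mice without it (XX and XY-) form ovaries, and mice with it (XXSry and XY-Sry) form testes. All mice were gonadectomised at 75 days of age and at once given a capsule that was blank (B) or held testosterone (T, 5 mM) or estradiol (E, 50 µg). Tissue was taken 3 weeks later. The blank arm is therefore a gonadectomised arm, and no group with its own gonads is among the samples. In fat XX B held 3 arrays, the groups XY-Sry B, XX T and XXSry E held 4, and the other 8 held 5, which gives 17 blank, 19 testosterone and 19 estradiol arrays. Each of the 12 liver groups held 5. The labels do not say that the arrays of a group come from separate animals, so p-values measure the spread between these arrays only.

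Levels are log2 values of bead signals after background correction and quantile normalisation within a tissue, and a difference of 1 is a doubling. The median raw signal of an array was 130 to 230 in fat and 124 to 159 in liver. A probe is detected on an array where its detection p is under 0.01. A probe is called in a comparison where limma's adjusted p is under 0.05.

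The stretches just before the RefSeq starts of Agt and Lctl (GRCm38.p6) are shown because Agt was higher and Lctl lower in testosterone-treated fat, and because Agt moved the other way in liver. They are the 250 bases before the start of Agt, chr8:124569707-124569956 on the minus strand, and the 226 bases before that of Lctl, chr9:64116897-64117122 on the plus strand. Capitals mark matches, on either strand, to any of 5 motifs. These are AGAACA, the half-site of androgen and glucocorticoid receptors, their palindromic element GNACANNNTGTNC, TATAAA, the E box CACGTG and the STAT motif TTCNNNGAA. No motif of estrogen receptors was among them.
Agt: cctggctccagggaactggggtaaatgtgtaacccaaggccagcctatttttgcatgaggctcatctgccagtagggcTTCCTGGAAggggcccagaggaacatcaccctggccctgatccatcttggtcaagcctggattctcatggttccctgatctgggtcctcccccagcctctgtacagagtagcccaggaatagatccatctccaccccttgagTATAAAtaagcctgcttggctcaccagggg
Lctl: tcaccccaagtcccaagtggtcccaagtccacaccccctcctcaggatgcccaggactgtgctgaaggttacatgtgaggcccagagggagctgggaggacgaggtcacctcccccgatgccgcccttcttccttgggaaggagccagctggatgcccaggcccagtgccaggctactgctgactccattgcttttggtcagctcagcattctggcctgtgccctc
The Agt stretch held TATAAA, which starts 30 bases before the gene's start, and TTCCTGGAA, a match to the STAT motif that starts 172 bases before it. Among 32841 RefSeq windows of 250 bases, 12.4% hold TATAAA and 7.02% the STAT motif. Neither stretch held AGAACA, which 16.1% of the windows of 250 bases and 14.8% of those of 226 bases hold, nor the palindromic element (0.387% and 0.368%) or the E box (6.02% and 5.20%). The Lctl stretch held none of the 5 motifs. The RefSeq table's window for Il1r2 lies inside the span of the gene, and Hp has no entry, so neither is shown. Hp spans chr8:109575128-109579172, Il1r2 chr1:40084692-40125230, Agt chr8:124556587-124569706 and Lctl chr9:64117123-64138118 in the same assembly.

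Some arrays stood apart or went against their labels. The fat array XX E replicate 1 has label fields that disagree on the hormone. It was kept as estradiol. A hormone score, the mean of the 50 probes most raised in T over E less that of the 50 most lowered, was -1.34 on it. That is at the low end of the estradiol arrays (-1.34 to -0.31) and far from the testosterone arrays (2.07 to 2.93). The probes were picked with this array counted as estradiol, and the estradiol range includes it, so the score is no independent check. In liver the array labelled XY-Sry T replicate 5 had Xist at 6.63 and Eif2s3y at 4.53, both in the range of the XX arrays (6.35 to 7.40 and 4.32 to 4.96). The liver array labelled XY- E replicate 5 had a hormone score, made in the same way for liver, of 2.56, inside the testosterone range of 2.39 to 3.63 and outside the -1.97 to 0.43 of the other estradiol arrays. Liver values are given with these 2 arrays, and without them where that matters. Muscle and lymphoid markers varied widely between fat arrays: the mean level of 11 muscle markers ran from 6.77 to 14.2, and that of 12 lymphoid markers from 5.11 to 10.6. The adipocyte marker mean stayed between 10.3 and 11.7 over all 55 arrays. In bulk tissue, fewer cells of a type and less RNA per cell cannot be told apart.

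Hp, the scavenger of free haemoglobin, separated the treatments most clearly. In the blank arm the first probe read 13.12, 12.29 and 12.50 in XX and 11.83, 12.27, 12.61, 11.92 and 12.58 in XY- mice. The XXSry arrays read 13.12, 12.44, 13.19, 12.30 and 11.38, and in XY-Sry 11.71, 12.45, 11.98 and 11.78. No blank array exceeded 13.2. Under testosterone the same probe read 14.40, 14.78, 14.44 and 14.58 in XX and 14.18, 14.17, 14.64, 14.70 and 14.16 in XY- mice. In XXSry it read 14.65, 14.88, 14.88, 14.27 and 14.73, and in XY-Sry 14.53, 14.70, 14.98, 14.57 and 14.73. The lowest testosterone array lay above the highest blank array in each genotype and over the whole arm. Under estradiol the values were intermediate, 13.42 to 14.80 with a median of 14.02. They too lay above the blank arm, but how many of all probes do so for estradiol was not counted. The difference from blank was 2.24 ± 0.12 (SE) for testosterone, a 4.73-fold difference, and 1.69 ± 0.12 for estradiol. Both contrasts use the same blank arrays.

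The other Hp probes gave wider differences. ILMN_2668509 had a mean of 10.56 ± 0.44 (SD, n = 17) in blank and 13.58 ± 0.68 (n = 19) in testosterone arrays, and ILMN_2668510 had 10.98 ± 0.45 and 13.98 ± 0.60. Their testosterone differences were 3.01 ± 0.16 and 3.01 ± 0.14 (SE), and their estradiol differences 2.26 ± 0.16 and 2.25 ± 0.14. Raw signals of the first probe reached 35818, against a highest signal of any probe in fat of 41066, so it was read near the top of the scale, where differences can be compressed. That compression was not tested. The levels of the 3 probes over the 55 arrays were correlated at 0.91 to 0.98, and as deviations from group means at 0.30 to 0.85.

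Il1r2, the decoy receptor, was higher under both hormones. In the blank arm it read 7.21, 7.19 and 7.07 in XX and 5.80, 6.22, 7.68, 5.98 and 7.19 in XY- mice. The XXSry arrays read 6.65, 6.46, 7.83, 7.68 and 7.15, and in XY-Sry 6.36, 6.99, 6.65 and 7.35. It was detected in 15 of the 17 blank arrays, the exceptions being the 5.80 and the 6.22 of XY-. Under testosterone Il1r2 read 9.08, 8.87, 9.28 and 9.93 in XX and 8.76, 8.61, 9.35, 10.55 and 9.11 in XY- mice. In XXSry it read 8.90, 8.11, 8.98, 9.44 and 10.35, and in XY-Sry 8.23, 9.27, 9.10, 9.42 and 8.75. As for Hp, every testosterone array lay above every blank array. The difference was 2.24 ± 0.20 (SE), or 4.72-fold. The estradiol arrays read 6.79 to 9.76 with a median of 8.21 and overlapped with the blank arm, and their difference from it was 1.37 ± 0.20. Within the estradiol arm XX had the highest mean, with arrays from 8.49 to 9.76, and the XY-Sry arrays had the lowest mean, 7.75 ± 0.57 (SD, n = 5).

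Agt, the angiotensin precursor, varied most within groups. In the blank arm it read 7.37, 5.39 and 5.54 in XX and 6.08, 7.34, 7.70, 5.27 and 6.55 in XY- mice. The XXSry arrays read 7.60, 4.95, 6.31, 5.24 and 4.73, and in XY-Sry 4.79, 6.84, 5.61 and 5.21. Agt was detected in only 7 of the 17 blank arrays, so the blank mean of 6.03 ± 1.03 (SD) rests mostly on values near background. Under testosterone Agt read 7.40, 8.26, 8.27 and 9.06 in XX and 7.42, 7.42, 6.70, 8.85 and 6.60 in XY- mice. In XXSry it read 8.37, 7.50, 9.71, 10.15 and 8.92, and in XY-Sry 10.82, 8.25, 6.36, 8.47 and 8.03. It was detected in all 19 testosterone arrays, but the arms overlapped, and the overlap was widest in XY-. The difference was 2.22 ± 0.39 (SE). With undetected blank values raised to the lowest signal detected on their array, the testosterone mean was 3.54-fold higher in this processing. Estradiol arrays read 5.50 to 10.53, with a median of 6.90, and 17 of 19 were detected. Their difference from blank was 1.06 ± 0.39. XY- E replicate 3 stood far above the other arrays of its group, at 10.53 against 5.50 to 6.26.

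Lctl, the klotho-family member, was lower under both hormones. In the blank arm it read 8.44, 7.92 and 8.17 in XX and 6.77, 7.93, 7.88, 7.24 and 7.80 in XY- mice. The XXSry arrays read 8.41, 8.45, 9.15, 8.37 and 7.43, and in XY-Sry 7.52, 8.76, 7.50 and 7.82. All 17 blank arrays detected it. Under testosterone it read 4.89, 7.34, 6.15 and 5.61 in XX and 6.17, 5.59, 5.97, 5.30 and 5.14 in XY- mice. In XXSry it read 5.44, 6.34, 5.61, 6.85 and 7.70, and in XY-Sry 6.59, 5.81, 7.27, 7.44 and 6.31. Only 11 of the 19 testosterone arrays detected it, and the highest of them reached into the range of the blank arm. The difference was -1.81 ± 0.20 (SE). With undetected testosterone values raised to the detection floor in the same way, the testosterone mean was 2.84-fold lower in this processing. Estradiol arrays read 5.76 to 8.0 with a median of 6.52, and their difference from blank was -1.34 ± 0.20.

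**Figure D1:**
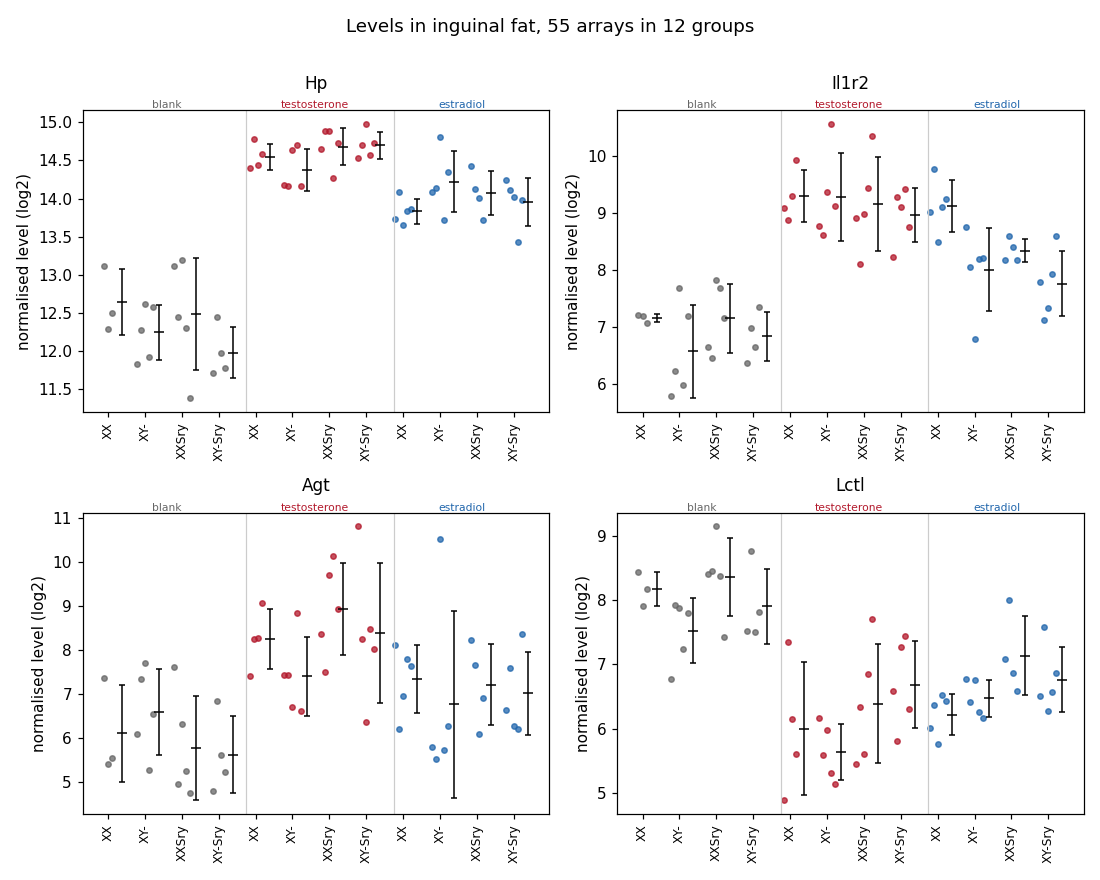
Normalised log2 levels of the first Hp probe, Il1r2, Agt and Lctl in inguinal fat, 1 point per array, grouped by genotype within the blank (grey), testosterone (red) and estradiol (blue) arms, with the mean and SD of each group beside its points. Hp and Il1r2 of the testosterone arrays (from 14.16 and 8.11) lie above all blank arrays (up to 13.19 and 7.83), while Agt and Lctl overlap.

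The order of the 12 groups by mean level is given as a description, since the genes were chosen for the treatment difference. For Hp the 4 testosterone groups (14.37 to 14.70) came before the 4 estradiol groups (13.83 to 14.22) and the 4 blank groups (11.98 to 12.64). The step from XX E to XX B, 1.20, was the only one between neighbours that exceeded the SD of both and had no overlap of arrays. For Agt the testosterone groups led as well, from XXSry T at 8.93 ± 1.06 (SD, n = 5) down to XY- T at 7.40 ± 0.90, and XY-Sry B was last at 5.61 ± 0.88 (n = 4). For Il1r2 the XX E group (9.12 ± 0.46, n = 5) stood among the testosterone groups, between XXSry T (9.15 ± 0.82) and XY-Sry T (8.95 ± 0.47). Its steps from XY-Sry T to XXSry E and from XY-Sry E to XX B exceeded the SD of both groups, but the arrays overlapped. For Lctl the blank groups led, from XXSry B at 8.36 ± 0.61 to XY- B at 7.52 ± 0.50, and the estradiol and testosterone groups were interleaved below them, from XXSry E at 7.14 to XY- T at 5.63 ± 0.44 (n = 5). No neighbouring groups of Agt or Lctl differed by more than their SD.

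**Figure D2:**
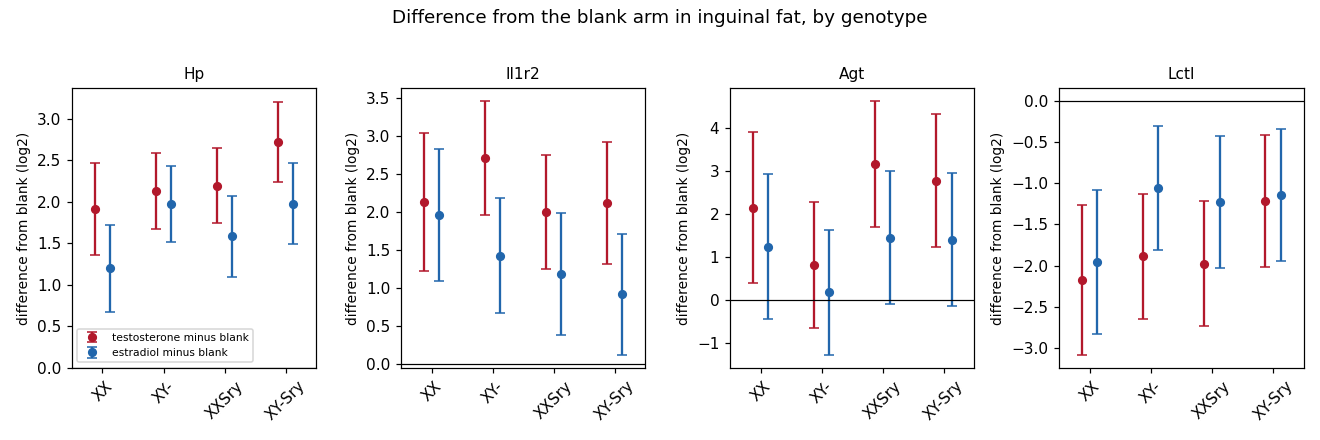
Difference from the blank arm (log2) of each gene in each genotype, for testosterone (red) and estradiol (blue), with the limma 95% confidence interval. All points of Hp and Il1r2 are above 0 and all of Lctl below 0. The interval of Agt in XY- under testosterone runs from -0.65 to 2.27, and under estradiol the Agt interval includes 0 in every genotype.

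Within genotypes, the testosterone difference of Hp was 1.92 in XX, 2.13 in XY-, 2.20 in XXSry and 2.72 in XY-Sry mice. That of Il1r2 was 2.13, 2.71, 2.0 and 2.12 in the same order. Agt ranged most, with 2.15, 0.81, 3.17 and 2.78. Lctl gave -2.18, -1.89, -1.98 and -1.22. The lowest Agt difference belonged to XY-. Its blank mean of 6.59 was the highest of the 4 blank groups, and its testosterone mean of 7.40 the lowest of the 4 testosterone groups.

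Whether the response itself depends on gonad type or sex chromosomes was tested as an interaction over all 14636 probes. None of the 6 probes was called for either interaction. Over all probes, 2 (0.0137%) were called for testosterone by gonad type and 0 (0%) for testosterone by sex chromosome. The Agt response was 1.49 ± 0.78 (SE) larger with Sry than without, with an interval of -0.07 to 3.05 and limma adjusted p = 1.0. For Hp the same difference was 0.44 ± 0.24 with the first probe. With the other Hp probes it was 0.95 ± 0.32 and 0.91 ± 0.29, with unadjusted p = 0.00453 and 0.00252 and limma adjusted p = 0.974 and 0.768. For Il1r2 it was -0.36 ± 0.40 and for Lctl 0.44 ± 0.40. The sex chromosome interaction was -0.37 ± 0.24 for Hp, -0.34 ± 0.40 for Il1r2, 0.86 ± 0.78 for Agt and -0.52 ± 0.40 for Lctl. The Agt intervals reached 3.05 for gonad type and 2.43 for the sex chromosomes, so equal responses are not shown.

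In the contrast that chose them, all 6 probes passed the threshold, where 4.75% of the 14636 tested probes did (2.16% higher and 2.59% lower). This follows from the choice. All 6 also passed it for estradiol against the same blank arrays, as did 20.5% of all probes. Agt did so narrowly: 6 of 10 other settings did not call it, and without background correction its estradiol difference was 0.51 in place of 1.06. On 7 probes (0.0478%) every testosterone array lay above every blank array: the 3 Hp probes, Il1r2, Egfr (the epidermal growth factor receptor), Lrg1 (a secreted leucine-rich glycoprotein of the acute phase) and Prtn3 (a neutrophil serine protease). On 0 probes (0%) did every testosterone array lie below every blank array. Just beyond the chosen genes on the higher side stood Prtn3 at 2.20 and Odf3l2, listed as Gm1157, at 2.19. On the lower side Glycam1, a mucin-like protein of lymph node vessels and milk, at -3.41 ± 0.97 (SE) and Elovl6, a fatty acid elongase, at -2.04 ± 0.30 were larger than Lctl. Next after Lctl came Tkt, the transketolase of the pentose phosphate pathway, at -1.69 and Aspg, listed as A530050D06Rik, at -1.58.

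Gonad type, averaged over the hormones, is independent of the choice of genes. Of the 6 probes 1 was called, where 7.34% of all tested probes were (2.63% higher with Sry). Lctl was 0.54 ± 0.16 (SE) higher with Sry than without, or 1.45-fold (limma adjusted p = 0.0291). The difference was 0.28 ± 0.29 in blank, 0.72 ± 0.27 in testosterone and 0.61 ± 0.27 in estradiol arrays. Under testosterone Lctl was detected on 7 of 10 arrays with Sry and on 4 of 9 without. With undetected values raised to the detection floor, the means of these arrays were 6.72 and 6.18. The gonad type difference was above 0 within 7 of 8 slides. Among these was slide 10, whose only 2 fat arrays, XXSry B and XY- B, differ in both gonad type and sex chromosomes. Without background correction the difference was 0.25 and stayed called (adjusted p = 0.0439). The call was not held without the 13 arrays highest in liver markers, called rich in liver RNA here (0.44 ± 0.19, adjusted p = 0.282). It was also lost when any of 4 single arrays was left out: XY-Sry B replicate 2 (0.49), XXSry E replicate 2 (0.49), XX B replicate 2 (0.51) or XX T replicate 1 (0.47), with adjusted p from 0.0555 to 0.0573. Hp differed by 0.00 ± 0.10, Il1r2 by -0.20 ± 0.16 and Agt by 0.08 ± 0.31, and none of them was called.

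Markers of other cell types differed with gonad type. All 7 tested mammary epithelium markers were lower with Sry, by a median of 3.30, and their mean level ran from 8.34 to 10.7 without Sry and from 5.10 to 8.47 with it. Of 11 adipocyte markers 3 were higher with Sry: Plin1 by 0.39, Lep by 0.50 and Lipe by 0.42. Of 11 neutrophil markers, Ltf, which milk-producing epithelium also makes, was lower by 3.92 and Elane higher by 0.33. No liver, muscle, lymphoid, macrophage or brown adipocyte marker was called for gonad type. As deviations from group means over the 55 arrays, Lctl was correlated with the mammary mean at 0.12, with the adipocyte mean at 0.40 and with the lymphoid mean at -0.56. The part of these cell types in the Lctl difference was not tested.

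For the sex chromosomes, averaged over hormones and gonad types, none of the 6 probes was called, and 0.137% of all probes were. Il1r2 had the smallest unadjusted p, with XX arrays 0.47 ± 0.16 (SE) above XY arrays (interval 0.14 to 0.79, unadjusted p = 0.0056, limma adjusted p = 0.28). It was higher in XX within 7 of 8 slides, slide 10 with its 2 fat arrays of differing gonad type included. The XX difference of Il1r2 was 0.45 ± 0.29 in blank, 0.11 ± 0.27 in testosterone and 0.85 ± 0.27 in estradiol arrays. The difference of the first Hp probe was 0.13 ± 0.10, that of Agt 0.31 ± 0.31 and that of Lctl 0.22 ± 0.16.

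Hp and Agt are liver genes, and some fat arrays held liver RNA, so both were set against 19 probes of liver markers that do not include them. Albumin (Alb) lay between 4.49 and 11 over the 55 arrays with a median of 4.73, close to background. The liver marker mean had a median of 5.92 in blank (5.00 to 10.4), 6.03 in testosterone (5.34 to 13.2) and 5.46 in estradiol arrays (5.15 to 8.67). None of 17 tested liver marker genes was called for testosterone, and their median difference was 0.58. In 13 arrays the mean lay over 1 above the median of all arrays: 3 blank, 6 testosterone and 4 estradiol. They are called rich in liver RNA here, though the liver share estimated below was small on some. On XXSry T replicate 3 it was 0.62%, with Alb at 4.83. Most arrays of slide 12, which held no blank array, were among the 13, as were the 2 fat arrays of slide 10, both blank. Leaving the 13 out thus also removes most of these slides, and liver RNA and slide cannot be told apart there. XY-Sry T replicate 1 was far out, with a liver mean of 13.2, Alb at 11 and the highest Agt of all, 10.8. Next were XX T replicate 4 at 10.5 and XXSry B replicate 1 at 10.4.

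**Figure D3:**
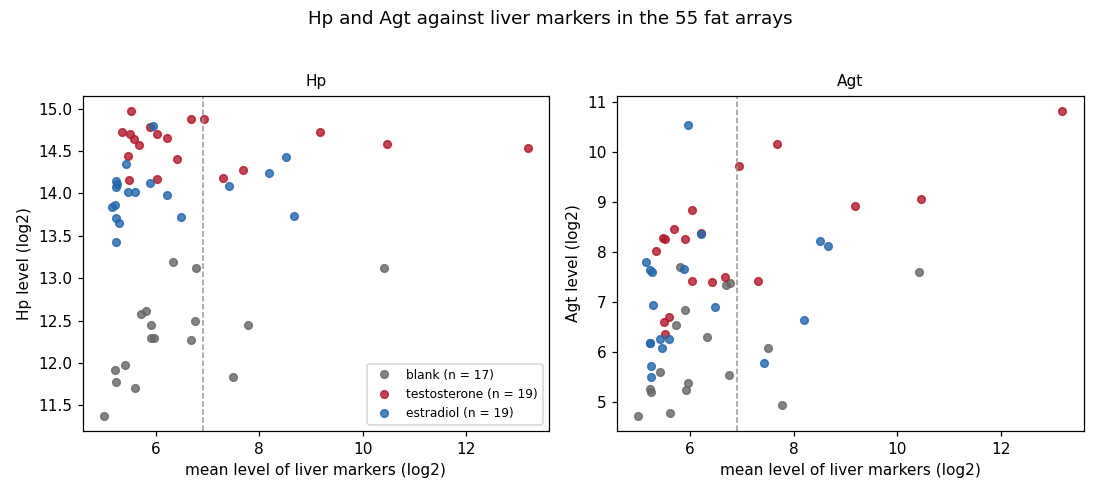
Level of the first Hp probe and of Agt (log2) against the mean level of 19 liver marker probes in the 55 fat arrays, coloured by treatment; the dashed line lies 1 above the median of the marker mean. To the left of the line the testosterone arrays lie above the blank arrays for Hp, while Agt overlaps, and the array with the highest marker mean (13.2) also has the highest Agt.

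For Hp the testosterone difference was as large without those arrays as with them. It was 2.31 ± 0.15 (SE) without the 13 arrays, 2.22 ± 0.12 with the liver marker mean as a covariate, and 2.0 with the muscle, lymphoid and neutrophil means added to it. Its deviations from group means had a correlation of 0.15 with the liver mean, -0.49 with the lymphoid mean and 0.32 with the adipocyte mean. In an estimate of the liver share from markers read in both tissues, that share supplied a median of 0.53% of the Hp signal in testosterone arrays and 2.12% in blank arrays, though 96.9% in XY-Sry T replicate 1. This estimate is coarse, because it sets raw signals of separately run tables against each other.

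Agt varied more closely with the liver markers than Hp did, but not with them alone. The correlation of its deviations with the liver mean was 0.48, with the muscle mean 0.43 and with the lymphoid mean -0.60. With the neutrophil and macrophage means it was -0.41 and -0.39. Agt had 0.07 with the mammary epithelium, 0.20 with the adipocyte and -0.11 with the brown adipocyte mean. Its testosterone difference was 1.81 ± 0.43 (SE) without the 13 arrays, 2.03 ± 0.35 with the liver marker mean as a covariate and 1.76 with all 4 marker means, against 2.22 at first. The estimated share of its signal that liver RNA supplied had a median of 5.43% in testosterone and 22.9% in blank arrays, where Agt itself was mostly undetected. The estimate exceeded 100% in 3 arrays, at 320% in XXSry B replicate 2, 169% in XXSry B replicate 1 and 108% in XY-Sry T replicate 1, so it cannot be read as a true share there, and in the last the liver share itself came to 117%. XY- E replicate 3, with Agt at 10.5, had a liver mean of 5.95 and Alb at 4.57. The lymphoid markers also moved with treatment, with a median of 7.79 in blank, 5.98 in testosterone and 8.75 in estradiol arrays and a median difference over 12 genes of -1.14 for testosterone, though none was called. The part of lymphoid RNA in the Hp and Agt differences was not tested apart from the covariate fit.

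The slides did not hold all treatments. Slides 5 and 13 held both blank and testosterone fat arrays. On slide 5 the testosterone difference was 1.77 for Hp, 1.81 for Il1r2, 0.77 for Agt and -2.23 for Lctl. On slide 13 it was 2.39, 2.80, 3.26 and -1.50. The direction was the same on both, and Agt was the gene whose size differed most between them. With slide as a block over all arrays the differences were 2.10, 2.29, 1.81 and -1.73.

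In liver Il1r2 and Lctl were at background. Il1r2 was detected in 1 of 60 arrays, with levels of 4.32 to 5.79, and Lctl in 0 of 60, with levels of 4.30 to 5.16. Their raw signals were 105 to 184 and 99.9 to 152. Both are therefore given for fat only.

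In liver, the main source of angiotensinogen, Agt was lower under testosterone. The blank arrays read 10.95, 11.16, 11.13, 10.76 and 11.38 in XX and 10.93, 10.93, 10.97, 10.61 and 11.44 in XY- mice. In XXSry they read 11.10, 11.32, 11.44, 10.78 and 11.32, and in XY-Sry 11.37, 11.83, 10.97, 11.68 and 11.58. The XY-Sry group had the highest mean of the 12, at 11.49 ± 0.33 (SD, n = 5). Testosterone arrays read 10.42, 10.45, 10.94, 10.77 and 10.93 in XX and 10.89, 10.54, 10.80, 11.08 and 11.25 in XY- mice. In XXSry they read 10.36, 10.37, 10.40, 11.04 and 11.08, and in XY-Sry 10.61, 10.56, 10.18, 10.93 and 11.25, the last being the array whose sex chromosome transcripts went against its label. The arms overlapped, with means of 11.18 ± 0.33 and 10.74 ± 0.32 (n = 20 each). The testosterone difference was -0.44 ± 0.10 (SE), 1.36-fold lower (limma adjusted p = 7.80e-04), and without the 2 arrays that went against their labels it was -0.47. Within the 3 slides that held both treatments it was -0.50, -0.60 and -0.33. Estradiol arrays read 10.39 to 11.66, with a difference of -0.25 ± 0.10 that was not called (limma adjusted p = 0.125). It was called under median centring (-0.44, adjusted p = 0.0384), a scaling under which the median of all probes shifts by -0.18 between estradiol and blank.

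Hp in liver depended on the probe. The first probe read 14.12 to 14.80 in blank, 14.17 to 14.80 in testosterone and 14.34 to 14.92 in estradiol arrays, a near-complete overlap. Its raw signals were 18684 to 31271, close to the highest of any probe in liver, 37472. Its differences were -0.03 ± 0.06 (SE) for testosterone (interval -0.15 to 0.09) and 0.03 ± 0.06 for estradiol, and neither was called. The second probe, ILMN_2668509, read 12.93 ± 0.39 (SD) in blank, 13.51 ± 0.40 in testosterone and 13.50 ± 0.53 in estradiol arrays (n = 20 each). It was called for both hormones, with 0.58 ± 0.13 (SE, limma adjusted p = 7.71e-04) and 0.56 ± 0.13 (adjusted p = 0.00351). The third, ILMN_2668510, gave 0.27 ± 0.09 (adjusted p = 0.0233) and 0.37 ± 0.09 (adjusted p = 0.00503). Under median centring the testosterone call of ILMN_2668510 (adjusted p = 0.14) and the estradiol call of ILMN_2668509 (adjusted p = 0.0578) were lost. Of the 4 probes tested in liver, 3 were called for testosterone and 2 for estradiol, where 19.1% and 6.82% of the 11317 tested probes were. For testosterone 2 were higher and 1 lower (8.17% and 10.9% of all), and for estradiol both were higher (3.55%). Median centring moved the share of all liver calls that were higher from 42.8% to 16.5% for testosterone and from 52.1% to 8.55% for estradiol.

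Neither gonad type nor the sex chromosomes gave a call on these 4 liver probes, with 3.4% and 0.186% of all liver probes called. Agt differed by 0.02 ± 0.08 (SE) with gonad type and by -0.17 ± 0.08 between XX and XY groups (unadjusted p = 0.0362, limma adjusted p = 1.0). The testosterone difference of Agt in liver was larger with Sry than without by -0.44 ± 0.20, which was not called (adjusted p = 0.824), and 0.124% of all liver probes were called for this interaction. Agt was thus higher with testosterone in fat and lower in liver. Each tissue was normalised by itself, so the difference between tissues has no test, and levels of the same gene are not compared across them.

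**Figure D4:**
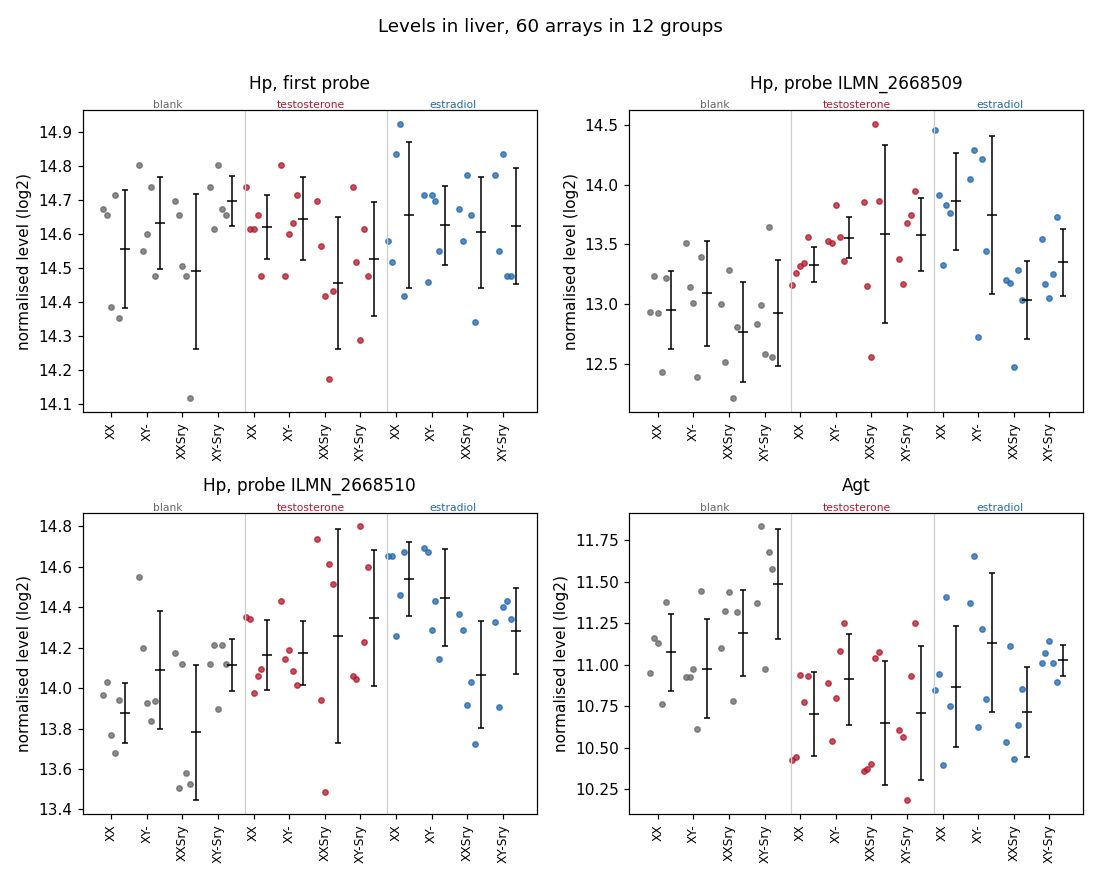
Normalised log2 levels of the 3 Hp probes and of Agt in liver, 1 point per array, grouped by genotype within the blank (grey), testosterone (red) and estradiol (blue) arms, with the mean and SD of each group beside its points. The first Hp probe spans 14.12 to 14.92 with no separation by treatment, and Agt has a lower mean under testosterone (10.74) than in blank arrays (11.18).

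Other genes of these pathways were counted from lists in testosterone-treated fat. Of 17 tested genes of a haptoglobin and acute phase list without Hp, 2 rose and 0 fell (2.16% of all probes were called higher and 2.59% lower). They were Cd163, the macrophage receptor that clears haptoglobin bound to haemoglobin, by 0.81 ± 0.21 (SE, limma adjusted p = 0.013), and Stat3, the transcription factor of interleukin 6 signalling, by 0.39 ± 0.10 (adjusted p = 0.0162). Stat3 was not called in 3 of 10 other settings (adjusted p up to 0.146), nor without XX B replicate 2 (0.33, adjusted p = 0.0588). Hemopexin (Hpx), which binds haem, had 0.73 ± 0.70 and was not called. The median of the list was 0.37, against -0.02 over all probes. Mrc1, another macrophage marker, rose by 0.61 ± 0.16 (adjusted p = 0.0139), and 4 of 10 other settings did not call it, among them slide as a block (adjusted p = 0.125). These 2 were the only ones called of 9 tested macrophage markers, whose mean had a median of 7.54 in blank and 7.78 in testosterone arrays, and the part of macrophage RNA in the Cd163 rise was not tested. Cd163 was not called without the 13 arrays rich in liver RNA (0.61, adjusted p = 0.264).

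Of 18 tested interleukin 1 family genes without Il1r2, 1 rose and 0 fell, where 2.16% and 2.59% of all probes did. It was Il1rl2, the interleukin 36 receptor, by 0.36 ± 0.11 (SE, limma adjusted p = 0.0447). It was detected in 2 blank and 3 testosterone arrays, and 7 of 10 other settings did not call it. The signalling receptor Il1r1 had 0.04 ± 0.11, the ligand Il1b 0.19 ± 0.35 and the antagonist Il1rn 0.40 ± 0.27. The median of the list was -0.04. Of 11 tested neutrophil markers none was called, and S100a8 had 0.05 ± 0.53.

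Of 9 tested renin-angiotensin genes without Agt, 1 rose and 1 fell, where 2.16% and 2.59% of all probes did. Ace, the angiotensin-converting enzyme, rose by 0.55 ± 0.17 (SE, limma adjusted p = 0.0457). It was detected in 1 blank and 3 testosterone arrays, and 7 of 10 other settings did not call it. Mme, the peptidase neprilysin, fell by 0.52 ± 0.13 (adjusted p = 0.00834), but was not called with slide as a block (-0.39, adjusted p = 0.178) or under median centring (adjusted p = 0.0531). The receptor Agtr1a had 0.10 ± 0.18, and renin (Ren1) did not pass the filter. In liver, 3 of 7 tested genes of the list fell with testosterone (10.9% of all liver probes were called lower): Mme by 0.93 ± 0.14, Enpep by 0.56 ± 0.12 and Agtr1a by 0.43 ± 0.08.

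Of 9 tested klotho family and fibroblast growth factor receptor genes without Lctl, none was called for testosterone, against 4.75% of all probes. Beta-klotho (Klb) had -0.57 ± 0.19 (SE, limma adjusted p = 0.0821), and Fgfr4 did not pass the filter.

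Of 18 tested genes of an androgen and glucocorticoid response list, 4 rose and 2 fell, where 2.16% and 2.59% of all probes did. Fkbp5, a co-chaperone of steroid receptors, rose by 1.77 ± 0.20 (SE, limma adjusted p = 1.90e-08). The metallothionein genes Mt2 and Mt1 rose by 1.59 ± 0.27 and 0.81 ± 0.10, and Hsd11b1, which regenerates active glucocorticoid, by 0.59 ± 0.13 (adjusted p = 0.00244). Akr1c18, a steroid reductase, fell by 1.36 ± 0.31 (adjusted p = 0.00564), and Esr1, the estrogen receptor alpha, by 0.77 ± 0.18 (adjusted p = 0.00763). Neither was called without the 13 arrays rich in liver RNA (adjusted p = 0.0858 and 0.0573), nor was Akr1c18 with slide as a block (adjusted p = 0.118) or Hsd11b1 with the 4 marker means as covariates (adjusted p = 0.0878). The list's median was -0.02. Against the same blank arrays, the estradiol differences were 0.27 for Fkbp5, 0.23 for Mt2, 0.28 for Mt1 and -1.49 for Hsd11b1, beside 1.69 for Hp and 1.37 for Il1r2.

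Among other markers, Cidea, a lipid droplet protein of brown adipocytes, fell by 1.12 ± 0.33 (SE, limma adjusted p = 0.0336) under testosterone, as 1 of 5 tested brown adipocyte markers, and 6 of 10 other settings did not call it. None of 11 adipocyte markers was called, and Lpl, with the highest signal, had -0.02 ± 0.06. None of 11 muscle, 12 lymphoid or 7 mammary epithelium markers was called. The ones with the highest signal, Myl1, Cd79b and Csn3, had 0.02 ± 0.27, -1.70 ± 0.88 and 0.35 ± 0.46. Apoa2, the liver marker with the highest signal, had 0.85 ± 0.80, Lyz2 of macrophages 0.05 ± 0.26, Ltf of neutrophils 1.05 ± 0.41 and Cox8b of brown adipocytes -0.65 ± 0.21.

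The genes whose levels followed each of the 4 most closely were sought over the 55 fat arrays, which share the treatment. For Hp they were Lrg1 (r = 0.88), Egfr (0.88) and Mt1 (0.81). For Il1r2 they were Egfr (0.86), Ecm1 (0.81), an extracellular matrix protein, and Hp itself (0.79, with ILMN_2668509). For Agt they were the glutathione transferase Gstp1 (0.73), the methionine sulfoxide reductase Msrb1 (0.72, listed as Sepx1) and Egfr (0.70, with another probe). Egfr stood in all 3 lists of the genes that were higher, and its testosterone difference was 1.72 ± 0.14 (SE) with the first probe. For Lctl the closest were LOC386463 (0.78), Mettl24 (0.77, listed as 9030224M15Rik) and LOC195357 (0.77).

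Once the group means were taken out, other genes came closest. For Hp these were Kif3a (0.79), Mt1 (0.76) and Abcc5 (0.74). For Il1r2 they were Ndn (0.73), Serpinh1 (0.73) and Fbln1 (0.73), with testosterone differences of 0.00, 0.02 and 0.18. For Agt they were Cbs (0.75), Gstp1 (0.75) and Slc47a1 (0.73, listed as 1300013J15Rik). For Lctl they were Ergic1 (0.74, listed as 1200007D18Rik), Cpne8 (0.73) and Odf3l1 (0.72, listed as BC049697). Among the 4 genes themselves, levels of Hp were correlated with Il1r2 at 0.77, with Agt at 0.67 and with Lctl at -0.60. Within groups the same values were 0.11, 0.45 and 0.42, and Agt with Il1r2 had -0.02. Arrays within a group differed in tissue makeup and mostly in slide, and these values can reflect both. They describe the arrays and carry no p.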

How the data were processed

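RNA of inguinal fat and liver was hybridised to Illumina BeadChips, 1 array per sample. Per the file headers, the deposited values are average bead intensity per probe, not logged, with a detection p-value beside each. The deposited intensity values showed no sign of prior normalisation, with differing array medians and lowest signals of 92.6 in fat and 89.1 in liver. The submitters' processing notes name lumi, with no role, and settings or build are not given in the sources used here. The tables' 115 columns of bead standard errors were not used.

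Each tissue was processed by itself in limma 3.58.1 (R 4.3.3): normexp background correction with negative controls inferred from the detection p-values, an offset of 16, quantile normalisation and log2. Adding 16 understates differences of dim probes. A probe was tested if it was detected (p under 0.01) on 3 or more arrays in fat or 5 or more in liver, the size of the smallest group, which left 14636 and 11317 of 25697. A model with 1 mean for each of the 12 groups was fitted by lmFit and eBayes, contrasts weighted groups equally, and p-values were adjusted by Benjamini-Hochberg over all tested probes of a contrast. Differences are log2, with SE from the fit. The fit was also run on simulated data with shifts added to the testosterone arrays. Those values were independent and held no slide or tissue differences, so that run does not bear on either. Array number limits precision.

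The genes, lists and alternatives were chosen with earlier results of these data known. Named genes are all probes of the 4 symbols, the next 2 in size on each side and any larger, up to 4 called genes and the fixed partners of each list, the 3 closest by correlation, and the called and most abundant genes of each marker list. Alternatives were no background correction, offset 50, median centring, no filter, slide as a block, array weights, each array left out and, in fat, the array with conflicting labels as testosterone, marker means as covariates and no arrays rich in liver RNA. Leaving out the 2 liver arrays against their labels, the estradiol values under alternatives, the liver share and the within-slide values were added after seeing the data. Replicate numbers, given here in accession order, only name arrays. Promoter sequences come from RefSeq tables of GRCm38.p6.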

Additional observations from a re-analysis of the deposited data

Results flagged for a closer look

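In fat, Agt of XY- E replicate 3 was 10.53, against 5.50 to 6.26 in the other 4 arrays of its group, a gap that took 0.85 of the group's range. The same array had a liver marker mean of 5.95, Hp at 14.80, the highest of the estradiol arm, and Il1r2 at 6.79, the lowest of that arm. In liver, the Hp probe ILMN_2668510 was 13.91 in XY-Sry E replicate 2, against 14.33 to 14.43 in the others of its group. Over 114 pairs of probe and group that were examined, these were the 2 found (1.75%), where about 1 in 20 would be found by chance.

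The mean of the liver markers stood apart in 2 fat arrays, out of 11 groups examined. It was 13.19 in XY-Sry T replicate 1, against 5.34 to 5.68 in the other 4 arrays of that group. In XX E replicate 1, the array whose label fields disagree on the hormone, it was 8.67, against 5.15 to 5.29.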

How the results depend on the processing

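For the 4 genes, the testosterone difference in fat kept its direction under every alternative run, arrays left out included: Hp 2.0 to 2.35, Il1r2 1.49 to 2.35, Agt 1.19 to 2.38 and Lctl -2.14 to -0.91. Without background correction Il1r2 was 1.49 and Lctl -0.91, and the estradiol difference of Lctl was -0.75. The counts of probes called moved more than the genes did. For testosterone in fat, 695 probes became 306 under median centring, 256 with slide as a block, 1064 with array weights and 247 without the arrays rich in liver RNA. For estradiol in fat, 3003 became 1936 under median centring. For testosterone by gonad type, 2 became 1 without background correction, without a filter, with slide as a block and with the liver mean or the 4 marker means as covariates, and 0 under median centring and without the arrays rich in liver RNA. Without those arrays 697 were called for gonad type in place of 1075 and 11 for the sex chromosomes in place of 20, which array weights raised to 1148. In liver, median centring gave 1370 for testosterone, 1392 for estradiol and 232 for gonad type, in place of 2162, 772 and 385. In fat it moved the share of gonad type calls that were higher from 35.8% to 23.4%. That share was 13.5% without the arrays rich in liver RNA and 45.7% with slide as a block.

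Values near 0 changed sign. For gonad type in fat, Hp was -0.0054 with slide as a block, -0.0076 with the liver covariate and -0.0721 without the arrays rich in liver RNA, and Agt was -0.0392 with the covariate and -0.27 without those arrays. Without them Lctl was 0.44, no longer called, and Agt for the sex chromosomes -0.0237. In liver, Hp was 0.0102 for testosterone with slide as a block and -0.0011 for estradiol under median centring, where Agt, -0.44, was called. Agt for gonad type was -0.0183 without the 2 arrays against their labels. The causes were not tested.

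With each array left out in turn, gonad type in fat gave -0.0256 to 0.050 for Hp, -0.0207 to 0.24 for Agt and 0.47 to 0.61 for Lctl, and in liver -0.0042 to 0.0409 for Agt. Calls ran from 16 to 65 for the sex chromosomes in fat (65 without XXSry B replicate 5, 54 without XY- B replicate 5 and 31 without XY-Sry B replicate 2) and from 0 to 2 for testosterone by gonad type. In fat, the testosterone calls of Ace, Il1rl2 and Cidea were lost without any of 26, 20 and 9 arrays. No paired analysis was possible because the labels carry no replicate numbers. Dim signals limit Agt in blank arrays and Lctl in testosterone arrays, and the first Hp probe is limited by the top of the scale.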
